A study of Homo sapiens with 6 samples.

Results

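The genes of nuclear transport examined here encode the nucleoporins, which build the nuclear pore, the importins and exportins, which carry cargo through it, and the small GTPase Ran with its regulators. Members were the genes on chromosomes 1 to 22 and X whose symbol in the authors' deposited table is a numbered NUP, KPNA, XPO, IPO or TNPO gene or XPOT, together with KPNB1, SEH1L, RANBP2, TPR, AAAS, NDC1, POM121, CSE1L, RAN, RANBP1, RANGAP1 and RCC1. This gave 55 of the 62729 genes in that table, and 2 further entries on patch sequences of the assembly were left out. After a filter on low counts, 53 members stood among 17171 tested genes. The members that did not pass were KPNA7, with 1 to 7 counts in every library, and NUP210L, with 1 to 3.

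All libraries came from A549, an established cell line of human lung adenocarcinoma origin. Cells were reverse transfected with 10 nM of siRNA and harvested after 72 hours. The siOTP group received an ON-TARGETplus non-targeting control, and the siRPS19 group a siGENOME SMARTpool against RPS19, a gene for a protein of the small ribosomal subunit. Each group had 3 biological replicates, and no allele, selection or other agent separated them per the labels. The product line of the siRNA differed along with its target, so the effects of both cannot be told apart. Counts on genes ran from 20814110 to 23889372 per library. RPS19 itself had 30731, 27124 and 30387 counts in siOTP and 1159, 830 and 1073 in siRPS19, a 35.3-fold fall (log2 fold change -5.14 ± 0.09 SE, adjusted p = 4.98e-12). The 6 epithelial markers checked were detected in every library, with a summed level of 5219 to 5645 CPM in siOTP and 3394 to 3783 CPM in siRPS19. KRT7, KRT8, KRT18 and EPCAM were lower in every siRPS19 library than in any siOTP library, EPCAM at only 4.49 to 5.32 CPM against 3.10 to 3.56 CPM. KRT19 (32.0 to 37.7 CPM in siOTP, 236 to 256 CPM in siRPS19) and CDH1 (29.4 to 31.8 and 48.7 to 51.6 CPM) were higher. The leukocyte marker CD3E and the endothelial marker PECAM1 were at 0 in every library, and the summed level of 4 leukocyte markers was 1.87 to 2.84 CPM in siOTP and 2.46 to 4.30 CPM in siRPS19. Of 3 fibroblast markers, COL1A1 held most of a summed level of 34.9 to 42.3 CPM in siOTP and 14.4 to 20.0 CPM in siRPS19. Any part of these marker levels in the results was not tested. These libraries are bulk RNA, so a smaller share of cells in some state and less of an mRNA per cell cannot be told apart in any value below.

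As background, the nuclear pore is a ring-shaped channel through the nuclear envelope, built from many copies of a set of nucleoporins. Scaffold nucleoporins form its outer and inner rings, a few span the membrane, and others carry phenylalanine-glycine repeats that fill the channel and bind passing carriers. Importins take cargo into the nucleus and release it on meeting Ran bound to GTP, whereas exportins need Ran-GTP to hold their cargo on the way out. The exchange factor RCC1 loads Ran with GTP on chromatin, and RANGAP1 with RANBP1 and RANBP2 drives GTP hydrolysis on the cytoplasmic side. In dividing cells the same machinery serves spindle assembly and the rebuilding of the nuclear envelope after mitosis.

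Nuclear transport mRNAs were mostly lower in cells given RPS19 siRNA. Of 53 tested members, 49 fell, 2 rose and 2 did not pass edgeR's quasi-likelihood test, adjusted over all tested genes with a threshold of 0.05. Among all tested genes 38.9% were called lower and 39.5% higher. The fall was at least 2-fold for 33 members, against 12.4% of all tested genes, and the rise at least 2-fold for 1, against 18.5%. The 49 and the 33 include IPO4, which passed the filter only through siOTP, where it was higher. The median log2 fold change was -1.09 over the members and 0.02 over all tested genes. Summed over the 55 members, the level fell from 11977 ± 54.1 to 5279.7 ± 26.0 CPM (counts scaled to library size by TMM; n = 3 per group, SD). On this scale the sum over all tested genes was lower as well, at 1104320 ± 3153 CPM in siOTP and 905579 ± 10223 CPM in siRPS19. Summed levels here and below are therefore not shares of a library. The groups were apart for 49 members with siRPS19 lower and for 2 with siRPS19 higher, and overlapped for 2. Over all tested genes the groups were apart downward for 39.6%, upward for 40.1% and either way for 79.7%.

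**Figure D1:**
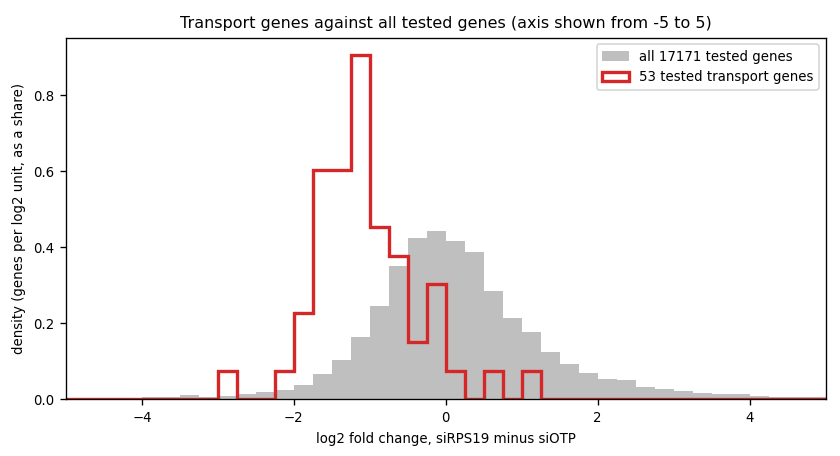
Distribution of log2 fold changes, siRPS19 minus siOTP, on the x axis from -5 to 5, for all 17171 tested genes (grey) and the 53 tested transport genes (red line), as density on the y axis. The transport genes centre on a median of -1.09 and all tested genes on 0.02.

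The labels give same-numbered libraries of both groups a shared date, and the members moved alike in each of these 3 pairs. The median log2 difference within a pair was -1.10, -1.09 and -1.11 over the tested members. In all 3 pairs 50 members were lower and 2 higher in siRPS19, and the direction of RANGAP1 was mixed. The same count over all tested genes was not made. Groups that are apart, as for 79.7% of all tested genes, must show 1 direction in all 3 pairs, so this was common. With the replicate number as a block the calls were again 49 lower and 2 higher.

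The size of the fall depended on how libraries were scaled, because library totals in place of TMM factors moved the median of all tested genes from 0.02 to 0.31. The split of all tested genes was 6778 higher and 6673 lower with TMM, and 9114 higher and 4734 lower with library totals. On the latter scale 45 members fell and 5 rose, with a median of -0.81. Upper-quartile factors gave 46 members lower and 4 higher, with a median of -0.92, beside 8187 of all tested genes higher and 5505 lower. All directions below are on the TMM scale, and the genes that change call or direction with the scaling are named where they appear.

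**Figure D2:**
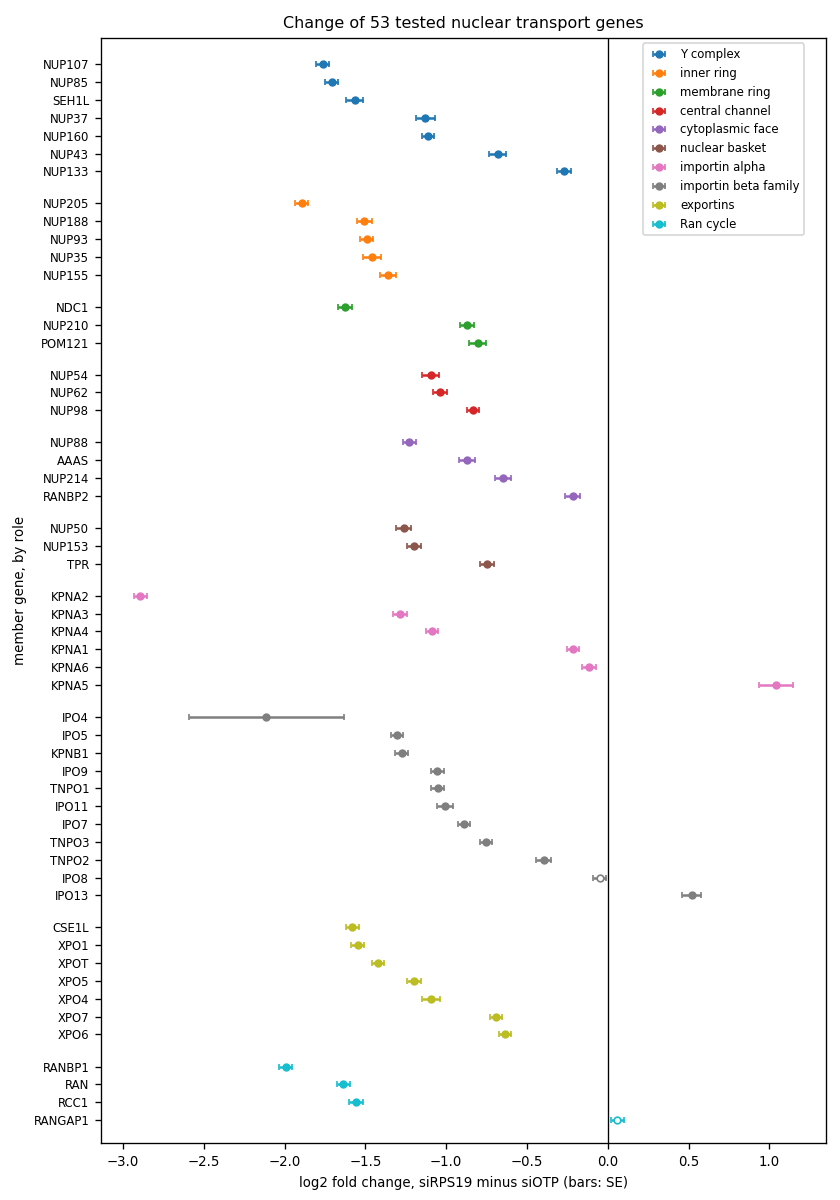
Log2 fold change, siRPS19 minus siOTP (x axis, bars show SE), for each of the 53 tested members (y axis), grouped by role; open symbols did not pass the test. KPNA2 lies lowest at -2.89, and KPNA5 and IPO13 are the 2 called members to the right of 0.

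All 25 tested nucleoporins fell, 16 of them at least 2-fold, with log2 fold changes from -1.89 to -0.22. Their summed level went from 3554 ± 50.2 to 1694 ± 22.7 CPM (n = 3 per group, SD). Scaled per kilobase of the transcript length in the authors' table, their levels in siOTP ran from 6.59 CPM per kb for SEH1L to 39.8 for NUP210, with a median of 22.5. In siRPS19 the same genes ran from 2.23 to 21.8 CPM per kb with a median of 9.14, again with SEH1L lowest and NUP210 highest. Whether these lengths match the mRNAs present in the cells was not tested. Levels per kb of different genes, here and below, depend on them.

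The Y complex forms the outer rings of the pore scaffold, and its members also sit at kinetochores in mitosis. Its 7 members in the list fell, 5 of them at least 2-fold, with a median log2 fold change of -1.13. NUP107, a core subunit of the stem of the Y, measured 172, 173 and 163 CPM in the siOTP libraries and 49.5, 50.3 and 49.6 CPM in siRPS19. It fell 3.40-fold (log2 fold change -1.76 ± 0.04 SE, adjusted p = 6.24e-19). NUP85, a subunit of the short arm, went from 137, 140.1 and 141 CPM to 42.4, 42.1 and 43.2 CPM, a 3.27-fold fall. For both genes the highest siRPS19 library lay far under the lowest siOTP library. SEH1L, which encodes a small beta-propeller subunit shared with an amino acid sensing complex, held 67.6, 68.6 and 71.0 CPM in siOTP and 23.6, 24.3 and 22.2 CPM in siRPS19, 2.96-fold lower. NUP37, another beta-propeller subunit, held 61.2, 68.7 and 64.6 CPM against 27.7, 32.1 and 29.2 CPM, 2.19-fold lower. The other 3 members fell less. NUP160 fell 2.16-fold and NUP43 1.60-fold, and NUP133, which joins neighbouring Y complexes into a ring, fell 1.21-fold from 101 ± 3.48 to 83.4 ± 1.28 CPM (n = 3 per group, SD). With library totals the log2 fold change of NUP133 turned from -0.27 to 0.02 and no longer passed (adjusted p = 0.759). NUP43 overlaps PCMT1 on the opposite strand by 223 bases.

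The inner ring lines the channel and anchors the central repeats. All 5 of its members fell at least 2-fold, with log2 fold changes between -1.89 and -1.36. NUP205, a large scaffold protein, measured 264, 251 and 261 CPM in siOTP and 68.2, 70.0 and 70.8 CPM in siRPS19. Its 3.72-fold fall (log2 fold change -1.89 ± 0.04 SE, adjusted p = 8.39e-20) had the lowest log2 value among the nucleoporins. NUP188, a paralog of NUP205, went from 186, 180.0 and 177 CPM to 66.6, 59.0 and 65.7 CPM, 2.84-fold lower. The 3 libraries of each group lay close together in both genes, and the groups were apart. NUP93, which binds both of these large proteins, held 173, 165 and 169 CPM against 61.8, 58.0 and 60.2 CPM, 2.81-fold lower. NUP35, a membrane-binding subunit also called NUP53, held 50.4, 52.6 and 51.2 CPM against 19.0, 19.3 and 17.8 CPM, 2.74-fold lower. NUP155, another membrane-binding scaffold protein, fell 2.57-fold from 116 ± 0.967 to 45.4 ± 3.00 CPM (n = 3 per group, SD). The 5 inner ring genes had a median log2 fold change of -1.49, and the spread among them was narrow beside that of the Y complex, which ran from -1.76 to -0.27. Whether the roles differ in their fall was not tested.

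Of the nucleoporins that span the membrane, the 3 tested fell. NDC1, which ties the scaffold to the envelope, measured 111, 113 and 112 CPM in siOTP and 37.0, 36.4 and 35.3 CPM in siRPS19, a 3.09-fold fall (log2 fold change -1.63 ± 0.04 SE, adjusted p = 5.42e-18). NUP210, also called gp210, went from 333, 304 and 339.7 CPM to 184, 179 and 171 CPM, 1.83-fold lower. Both genes had groups that were apart. POM121, a membrane protein with phenylalanine-glycine repeats, held 80.4, 78.0 and 77.9 CPM against 47.9, 41.2 and 46.1 CPM, 1.75-fold lower. POM121 has near-identical copies, POM121B and POM121C, so its own count is uncertain. Summed over the 3 genes the level was 173.9 ± 6.40 CPM in siOTP and 103.2 ± 6.05 CPM in siRPS19 (n = 3 per group, SD), and POM121C, itself a pore subunit, was called lower by 0.66 on the log2 scale. NUP210L, a paralog of NUP210, was at most 3 counts in any library.

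The 3 nucleoporins of the central channel carry the repeats that carriers bind. NUP62 and NUP54 belong to 1 trimer, whose remaining partner NUP58 is listed as NUPL1, and NUP98 encodes a precursor that is cut into NUP98 and the scaffold protein NUP96. NUP54 measured 52.3, 54.0 and 50.4 CPM in siOTP and 24.3, 24.4 and 24.7 CPM in siRPS19, 2.14-fold lower. NUP62 held 164, 153 and 167 CPM against 78.3, 80.1 and 77.3 CPM, 2.06-fold lower. The partner NUPL1 was lower by 1.05 on the log2 scale (adjusted p = 8.74e-15), close to NUP54 at -1.09 and NUP62 at -1.04, and the 3 values were not tested against each other. NUP98 went from 224, 226 and 232 CPM to 128, 126 and 128 CPM, 1.78-fold lower. NUP62 overlaps ATF5 on the opposite strand, a gene with 821 and 454 mean counts in the groups, so some of its reads could belong to ATF5 or be lost as ambiguous.

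On the cytoplasmic face, where mRNPs are remodelled and Ran-GTP is hydrolysed, all 4 members fell. NUP88 measured 132, 130.2 and 134 CPM in siOTP and 54.8, 56.8 and 57.6 CPM in siRPS19, a 2.34-fold fall. On the opposite strand RABEP1 overlaps 24872 bases of NUP88, with 2658 and 2770 mean counts, and RPAIN overlaps 520 bases. Some reads of NUP88 could belong to these genes or be lost as ambiguous. NUP214, its partner in a complex that docks the export carrier XPO1, held 95.3, 83.8 and 91.8 CPM against 57.5, 56.2 and 59.5 CPM, 1.56-fold lower. The siOTP libraries of NUP214 spread more than those of NUP88, and neither gene had overlapping groups. AAAS, which encodes aladin, held 99.2, 88.4 and 91.4 CPM against 51.0, 48.7 and 52.9 CPM, 1.83-fold lower. RANBP2, the large filament protein that holds SUMO-modified RANGAP1 at the pore, held 162, 143 and 156 CPM against 136, 133 and 127 CPM, 1.16-fold lower (log2 fold change -0.22 ± 0.05 SE, adjusted p = 2.17e-04). With library totals its log2 fold change was 0.07 (adjusted p = 0.177), and with upper-quartile factors -0.04 (adjusted p = 0.368). RANBP2 also shares sequence with the RGPD genes, and 7 of these summed to 34.3 ± 1.06 CPM in siOTP and 58.2 ± 2.66 CPM in siRPS19 (n = 3 per group, SD). Of these, RGPD5, RGPD6 and RGPD8 were called higher, by 0.75, 0.79 and 0.78 on the log2 scale. RGPD3 (0.04, adjusted p = 0.891) and RGPD4 (0.46, adjusted p = 0.182) were not called, and RGPD1 and RGPD2 were too low to test. Summed with RANBP2 the level was 187.7 ± 10.5 CPM in siOTP and 190.2 ± 6.57 CPM in siRPS19, and how the counting divided reads among these copies was not tested.

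The nuclear basket receives cargo and mRNPs on the inner side, and its 3 members fell. NUP50, a cofactor that helps release cargo from importin alpha, measured 87.2, 88.5 and 88.8 CPM in siOTP and 37.8, 35.3 and 37.1 CPM in siRPS19, 2.40-fold lower. NUP153 held 162, 149 and 154 CPM against 67.7, 68.7 and 66.5 CPM, 2.29-fold lower. TPR, the long coiled-coil protein of the basket filaments, held 331, 344 and 328 CPM against 209, 188 and 201 CPM, 1.68-fold lower (log2 fold change -0.75 ± 0.04 SE, adjusted p = 1.32e-12). All 3 genes had groups that were apart.

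**Figure D3:**
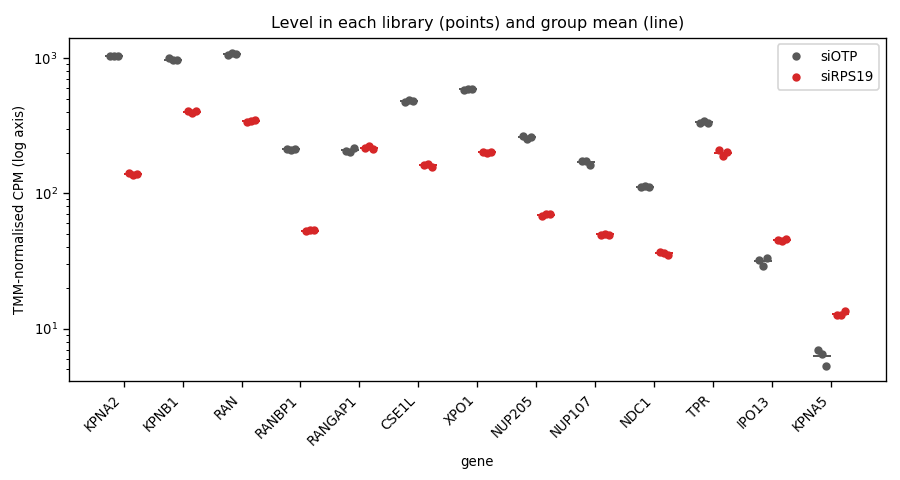
TMM-normalised CPM on a log axis (y) in each of the 3 siOTP (grey) and 3 siRPS19 (red) libraries for 13 members (x axis), with lines at the group means. The groups overlap for RANGAP1, siRPS19 lies higher for IPO13 and KPNA5, and siRPS19 lies lower for the others.

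The importin alpha family, adaptors that read the classical nuclear localisation signal and ride into the nucleus with KPNB1, held both the largest fall and the largest rise among the members by log2 fold change. Of 6 tested genes, 5 fell and 1 rose. KPNA2 (ENSG00000182481, chromosome 17, 66031635 to 66042958, hg19), the adaptor most abundant here, measured 1034, 1033 and 1033 CPM in siOTP and 140.4, 137 and 139.6 CPM in siRPS19. It fell 7.42-fold (log2 fold change -2.89 ± 0.04 SE, adjusted p = 1.30e-22). KPNA3 held 130.3, 130.0 and 131 CPM against 54.0, 55.9 and 50.4 CPM, 2.44-fold lower. KPNA4, its close paralog, held 201, 199 and 196 CPM against 92.2, 94.5 and 94.1 CPM, 2.12-fold lower. These 3 adaptors each had groups that were apart by more than the full spread within either group.

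KPNA5 (ENSG00000196911, chromosome 6, 117002350 to 117063029, hg19) went the other way. Its level was low, at 7.00, 6.48 and 5.31 CPM in siOTP, and was 12.6, 12.5 and 13.6 CPM in siRPS19. Its rise was 2.05-fold (log2 fold change 1.04 ± 0.11 SE, adjusted p = 1.61e-08), the largest rise among the members, and it rose under every scaling tried. KPNA5 belongs with KPNA1 and KPNA6 to 1 subfamily of the adaptors. KPNA1 was called lower by 0.21 on the log2 scale (from 137 ± 4.47 to 118 ± 1.28 CPM, n = 3 per group, SD) and KPNA6 by 0.11 (from 86.1 ± 4.30 to 79.5 ± 0.339 CPM), and both turned upward with library totals, to 0.07 (adjusted p = 0.123) and 0.17 (adjusted p = 0.00199, called higher). With upper-quartile factors neither passed, KPNA1 at -0.04 (adjusted p = 0.337) and KPNA6 at 0.06 (adjusted p = 0.231). The call on KPNA6 (adjusted p = 0.0239) was also lost with DESeq2 (0.0695), with the filter on mean CPM (0.173) and without siOTP replicate 1 (0.103), siRPS19 replicate 1 (0.0899), siRPS19 replicate 3 (0.104) or replicate 1 of both groups (0.362). KPNA7, an adaptor known from eggs and early embryos, was too low to test.

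The make-up of the importin alpha mRNAs differed between the groups. In CPM per kb, KPNA2 made up 80.7% ± 0.249 of the summed importin alpha level in siOTP and 47.7% ± 0.450 in siRPS19 (n = 3 per group, SD). KPNA1 went from 3.96% ± 0.122 to 14.98% ± 0.169, KPNA6 from 2.75% ± 0.129 to 11.1% ± 0.0555 and KPNA5 from 0.276% ± 0.0374 to 2.50% ± 0.125. KPNA3 and KPNA4 went from 7.14% and 5.17% to 12.9% and 10.7%. The summed level over the 7 genes was 408 ± 1.36 CPM per kb in siOTP and 93.0 ± 0.347 CPM per kb in siRPS19. These shares do not depend on how libraries are scaled, since they are taken within a library. They do depend on the transcript lengths in the authors' table, such as 3140 bases for KPNA2 and 8451 for KPNA1. The authors' deposited RPKM values, 1 per group, gave KPNA2 shares of 80.7% and 47.7%. They are built on the same counts and lengths, so this match was fixed in advance.

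**Figure D4:**
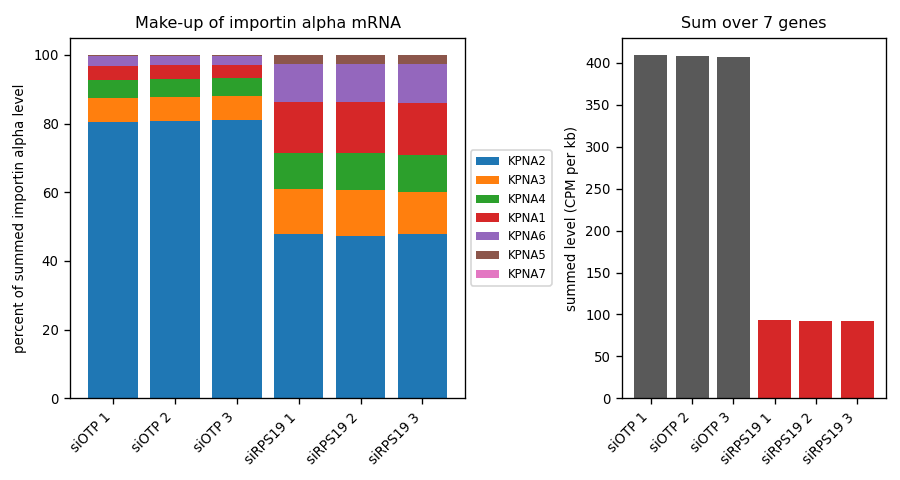
Left, the percent of the summed importin alpha level (CPM per kb, y axis) taken by each of the 7 genes in each of the 6 libraries (x axis). Right, the summed level itself; KPNA2 falls from 80.7% to 47.7% of the sum while the sum goes from 408 to 93.0 CPM per kb.

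The promoter of KPNA2 and those of other members were read for 4 short motifs, since these genes moved together. The motifs were the E box CACGTG, the CHR element TTTGAA known from cell cycle genes, the box CCAAT and the ETS core CCGGAAG. Each was searched on both strands, and none contains another. RefSeq promoter windows (GRCh38.p14, 250 bases before to 50 after the gene start) matched 48 members by symbol, with 63 windows in all. The E box lay in 14.3% of the members' windows and 7.26% of all 35116 windows, CHR in 25.4% and 15.2%, CCAAT in 41.3% and 34.6%, and the ETS core in 23.8% and 10.3%. Of the 48 members with a window 44 fell. By motif, 9 of 9 with an E box fell, 13 of 14 with CHR, 20 of 21 with CCAAT and 15 of 15 with the ETS core. The CCAAT member that did not fall was not tested. All these counts lie near the share over members with a window, and no link of a motif to the fall was tested. Members whose windows hold both CHR and CCAAT were CSE1L, KPNA2, NUP205, NUP35, NUP37, NUP93 and NUP98, and all 7 fell as well. The 200 bases before the start are shown for 4 of these genes, for RAN, which has an E box, and for RANGAP1, which has a CHR match and was not called; capitals mark matches to any of the 4 motifs on either strand, and each sequence is written on the gene's own strand. Coordinates are those of the printed bases.
KPNA2 (chr17:68035535-68035734, plus strand): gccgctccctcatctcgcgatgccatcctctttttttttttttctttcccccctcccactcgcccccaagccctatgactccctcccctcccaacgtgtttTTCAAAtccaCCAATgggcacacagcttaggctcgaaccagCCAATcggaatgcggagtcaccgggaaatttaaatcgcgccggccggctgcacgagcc
NUP205 (chr7:135557717-135557916, plus strand): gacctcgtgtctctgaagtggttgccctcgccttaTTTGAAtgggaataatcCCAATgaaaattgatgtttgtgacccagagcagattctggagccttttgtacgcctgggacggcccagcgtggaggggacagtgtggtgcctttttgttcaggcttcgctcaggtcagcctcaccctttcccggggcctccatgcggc
NUP37 (chr12:102120115-102120314, minus strand): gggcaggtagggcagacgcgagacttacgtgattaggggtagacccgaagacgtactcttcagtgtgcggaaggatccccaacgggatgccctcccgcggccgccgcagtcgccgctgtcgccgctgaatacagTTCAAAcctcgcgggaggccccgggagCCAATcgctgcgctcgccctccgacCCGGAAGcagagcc
NUP35 (chr2:183124243-183124442, plus strand): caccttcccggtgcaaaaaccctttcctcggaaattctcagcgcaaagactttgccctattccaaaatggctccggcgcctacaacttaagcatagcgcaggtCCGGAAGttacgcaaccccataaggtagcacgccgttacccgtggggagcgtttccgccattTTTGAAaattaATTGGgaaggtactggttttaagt
RAN (chr12:130871866-130872065, plus strand): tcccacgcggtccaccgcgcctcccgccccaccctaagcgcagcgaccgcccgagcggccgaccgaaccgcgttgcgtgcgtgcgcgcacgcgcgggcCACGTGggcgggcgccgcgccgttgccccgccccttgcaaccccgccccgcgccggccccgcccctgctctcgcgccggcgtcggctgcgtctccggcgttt
RANGAP1 (chr22:41286188-41286387, minus strand): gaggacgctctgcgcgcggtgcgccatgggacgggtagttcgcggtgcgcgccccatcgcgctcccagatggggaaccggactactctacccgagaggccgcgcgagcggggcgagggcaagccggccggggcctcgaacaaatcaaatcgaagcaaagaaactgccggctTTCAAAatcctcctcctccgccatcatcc
In KPNA2 the CHR match starts 99 bases before the start and the CCAAT matches 89 and 58 bases before it. In NUP37 and NUP35 the CHR match starts 66 and 35 bases before, and in RANGAP1 29 bases before the second of 2 listed starts. The CHR match of RAN lies across the start, so it does not stand in the bases shown. That of CSE1L, a gene whose bases are not shown, lies after the start. These matches are descriptions of letters in the windows.

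Of the 11 members of the importin beta family, 9 fell, 1 rose and 1 did not pass. KPNB1, the carrier that binds importin alpha and many cargoes directly, measured 993, 962 and 957 CPM in siOTP and 405, 394 and 403 CPM in siRPS19, a 2.42-fold fall (log2 fold change -1.28 ± 0.04 SE, adjusted p = 4.93e-17). IPO5, a carrier for ribosomal proteins and histones, went from 399.6, 399 and 401 CPM to 162, 166 and 158 CPM, 2.47-fold lower. IPO9, a carrier for histones and actin, held 223, 226 and 224 CPM against 113, 106 and 105 CPM, 2.08-fold lower. Each of these genes had groups that were apart. TNPO1, also called transportin, which imports RNA-binding proteins such as HNRNPA1, held 538, 532 and 555 CPM against 250.0, 269 and 265 CPM, 2.07-fold lower. IPO7, which also imports ribosomal proteins, fell 1.85-fold from 625 ± 11.7 to 338 ± 8.27 CPM (n = 3 per group, SD). TNPO3, the carrier of SR proteins, fell 1.69-fold and TNPO2 1.32-fold, and IPO11 fell 2.01-fold. KIF2A, on the same strand, overlaps 133278 bases of the IPO11 span and had 1776 and 1932 mean counts, so reads may be divided between them.

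IPO13 and IPO8 departed from the rest of the family. IPO13, a carrier that works in both directions, measured 32.1, 29.1 and 33.1 CPM in siOTP and 45.2, 44.1 and 45.7 CPM in siRPS19. Its rise was 1.43-fold (log2 fold change 0.52 ± 0.06 SE, adjusted p = 4.49e-08), and its groups were apart. IPO8, a paralog of IPO7, stood at 108 ± 1.55 and 104 ± 2.23 CPM (n = 3 per group, SD; log2 fold change -0.05, adjusted p = 0.245), and with library totals it passed upward at 0.24 (adjusted p = 2.51e-05). In CPM per kb, IPO13 took 1.54% ± 0.0980 of the family's summed level in siOTP and 4.26% ± 0.117 in siRPS19, and KPNB1 31.6% ± 0.632 and 25.1% ± 0.518 (n = 3 per group, SD). IPO4, a carrier for ribosomal proteins and histones, was listed with 10 to 12 counts in siOTP and 6, 1 and 2 in siRPS19. IPO4 passed the filter on low counts only through siOTP, the group where it was higher. A second gene model on the same strand, listed under a clone-based name, covers 8570 bases of its span. Whether reads of IPO4 were lost to that model as ambiguous was not tested. For both reasons the called fall of IPO4 (log2 fold change -2.11 ± 0.48 SE) is uncertain. Without siRPS19 replicate 1 the value was -2.99, and without replicate 1 of both groups -3.02.

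All 7 exportins fell, 5 of them at least 2-fold. CSE1L, the exportin that returns importin alpha to the cytoplasm, measured 472, 487 and 482 CPM in siOTP and 162, 164 and 156 CPM in siRPS19, a 2.99-fold fall (log2 fold change -1.58 ± 0.04 SE, adjusted p = 1.23e-18). XPO1, also called CRM1, the carrier for leucine-rich export signals and for both ribosomal subunits, went from 580.2, 585 and 593 CPM to 201, 197 and 202 CPM, 2.92-fold lower. XPOT, the exportin for tRNA, held 345, 352 and 354 CPM against 132, 133 and 128 CPM, 2.68-fold lower. The siRPS19 libraries of all 3 lay in a narrow range far under siOTP. XPO5, which exports precursors of miRNAs, held 128, 131 and 127 CPM against 54.2, 56.7 and 57.0 CPM, 2.30-fold lower, and overlaps POLR1C on the opposite strand. XPO4 fell 2.13-fold, XPO7 1.62-fold and XPO6, the exportin for actin, 1.55-fold, XPO6 from 162 ± 4.68 to 105 ± 0.217 CPM (n = 3 per group, SD). In CPM per kb, CSE1L held 43.1% ± 0.277 of the summed exportin level in siOTP and 36.0% ± 0.557 in siRPS19, XPO7 9.49% ± 0.130 and 14.7% ± 0.389, and XPO6 7.67% ± 0.269 and 12.3% ± 0.152 (n = 3 per group, SD).

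In the Ran cycle 3 of 4 genes fell and RANGAP1 did not pass. RANBP1, a cofactor that frees Ran-GTP from its carriers for hydrolysis, measured 212, 207 and 213 CPM in siOTP and 52.2, 53.4 and 53.4 CPM in siRPS19. Its 3.98-fold fall (log2 fold change -1.99 ± 0.04 SE, adjusted p = 3.32e-20) was the largest of the 4. TRMT2A, on the opposite strand, overlaps 1455 bases of RANBP1 and had 420 and 553 mean counts, so reads may be divided between them. RAN (ENSG00000132341, chromosome 12, 131356424 to 131362223, hg19) went from 1055, 1082 and 1064 CPM to 336, 344 and 349 CPM, 3.11-fold lower. The processed copy RANP1 was counted at 646 to 678 reads in siOTP and 224 to 240.0 in siRPS19, and the sum of both genes had a log2 ratio of -1.64, the same as RAN alone. RCC1, the exchange factor, held 164, 159 and 166 CPM against 53.0, 57.2 and 56.2 CPM, 2.94-fold lower. RCC1 shares 4913 bases on the same strand with SNHG3, which had 866 and 243 mean counts, so reads may be divided between the 2 genes.

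RANGAP1, the activating protein that triggers hydrolysis by Ran, measured 207, 202 and 218 CPM in siOTP and 216, 223 and 213 CPM in siRPS19. The groups overlapped, and the log2 fold change was 0.06 ± 0.04 SE (adjusted p = 0.187). With library totals it passed upward at 0.34 (adjusted p = 1.64e-07), with upper-quartile factors at 0.23 (adjusted p = 1.16e-05) and with the filter on mean CPM at 0.11 (adjusted p = 0.0169). In CPM per kb, RANGAP1 took 11.0% ± 0.375 of the summed level of the 4 genes in siOTP and 29.1% ± 0.629 in siRPS19, and RAN 63.7% ± 0.786 and 52.0% ± 0.579 (n = 3 per group, SD).

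**Figure D5:**
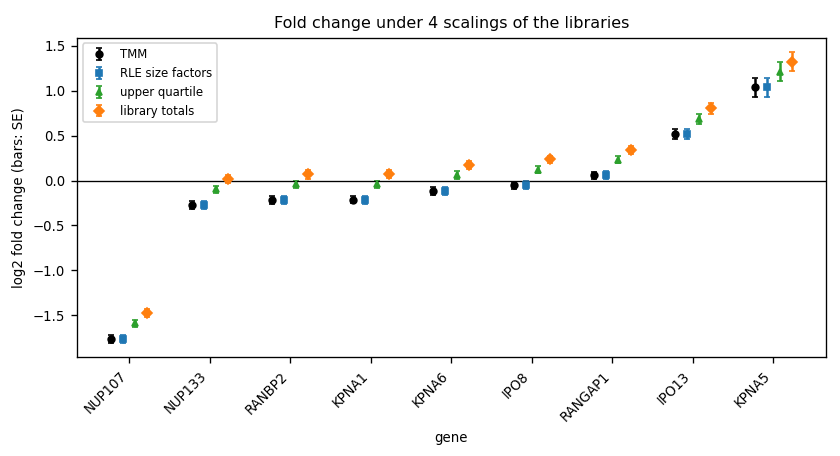
Log2 fold change, siRPS19 minus siOTP (y axis, bars show SE), of 9 members (x axis) under 4 scalings of the libraries. NUP107 stays below 0 and IPO13 and KPNA5 above 0 under the 4 scalings, and the 6 genes between them lie on both sides of 0 or reach the threshold on 1 side only with some scalings.

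By level per length, the order of the members differed between the groups. Ranks within a group rest on the lengths in the authors' table, which were 4825 bases for RAN, 4620 for RANBP1 and 11708 for XPO1. Whether the order would hold with other lengths was not tested. In siOTP the highest were KPNA2 (329 ± 0.178 CPM per kb), RAN (221 ± 2.88), CSE1L (129 ± 2.01), KPNB1 (126 ± 2.58) and IPO7 (86.3 ± 1.61; n = 3 per group, SD). CSE1L and KPNB1 lay within about 1 SD of each other, and the other neighbours in this order were apart by more than their spread. In siRPS19 the order was RAN (71.1 ± 1.29), KPNB1 (52.2 ± 0.737), IPO7 (46.6 ± 1.14), KPNA2 (44.3 ± 0.487), CSE1L (43.2 ± 1.25) and RANGAP1 (39.8 ± 0.994), where KPNA2 and CSE1L lay within 1 SD. RANGAP1 was ranked 13 in siOTP and 6 in siRPS19, and RANBP1 8 and 27.

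Other genes of the pathway, listed apart from the members, had medians below 0 as well. Beside the counts that follow, 38.9% of all tested genes were called lower and 39.5% higher. Of 6 pore subunits whose symbols the member rule does not reach, 5 fell and none rose, with a median log2 fold change of -0.72. NUPL1 fell by 1.05 on the log2 scale, AHCTF1 by 0.94 and RAE1 by 0.79; AHCTF1 encodes ELYS, which seeds pores on chromatin, and RAE1 works in mRNA export. NUPL2 did not pass (0.05, adjusted p = 0.546). Of 25 mRNA export factors 16 fell, none rose and 9 did not pass, with a median of -0.53. The helicase gene DDX39A fell by 1.49, THOC3 of the THO complex by 1.37 and NCBP1 of the nuclear cap-binding complex by 0.79. NXF1, the main carrier of mRNA, was at 0.07 (adjusted p = 0.391). With library totals 14 of the export factors fell and 8 rose, beside 4734 of all tested genes lower and 9114 higher. Of 9 other transport factors 6 fell, 1 rose and 2 did not pass, with a median of -0.41. RANBP3, a cofactor of XPO1, fell by 0.90, SNUPN, the import adaptor of spliceosomal snRNPs, by 1.00, and NMD3, the adaptor for export of the large ribosomal subunit, by 0.41, while RANBP17, a relative of the exportins, rose by 0.79 (adjusted p = 2.36e-08). NUTF2, the carrier of Ran into the nucleus, was at -0.11 (adjusted p = 0.0867). With library totals 3 of these factors fell and 3 rose.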

How the data were processed

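The submitters' processing notes name hg19 as the build, TopHat2 (2.0.8b) and HTSeq, and also R (3.0.2) with DESeq. How reads were assigned to genes, from which annotation and whether by strand is not given in the sources used here. Whether reads of genes on opposite strands were separated is therefore not known. The authors deposited whole-number read counts per gene for each of the 6 libraries. The authors' RPKM table gives a single value for each group, built on mean counts plus 1, and was used for description, symbols, hg19 coordinates and transcript lengths (the mean and length columns are the authors' own values). Another 6 columns of counts, which name no sample, were not used. Entries that name no gene, left out, were 3.39% to 3.85% (outside genes) and 8.10% to 8.24% (ambiguous) in siOTP, and 5.13% to 6.36% and 7.50% to 7.60% in siRPS19.

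Counts were filtered with filterByExpr (minimum count 10, minimum total 15), scaled with TMM factors and compared with edgeR 4.0.16 (R 4.3.3; robust quasi-likelihood test, Benjamini-Hochberg over 17171 genes, threshold 0.05). The fit was also run on simulated counts in which few genes changed, as many up as down. Since 78.3% of tested genes were called in these libraries, that simulation does not check the scaling. Each adjusted p-value printed without a tool is edgeR's. Alternatives tried were DESeq2 1.42.0, voom in limma 3.58.1, 3 scalings, 2 filters, a replicate block, leaving out libraries, and members without overlapping genes. The labels give same-numbered libraries a shared date, which pairs them; their deviations from group means correlated across genes at 0.05, -0.10 and 0.05. Between replicates the chi-square per degree of freedom was 4.40 to 16.6 for genes reaching 50 counts per pair of libraries, so no pair was counted as 1 library.

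Members and lists were chosen with earlier results of these data known. All members could be named; values in every library are given for up to 4 called members per role with the largest log2 fold change and a mean of at least 1 CPM, and for called members that moved against their role. In the other lists up to 3 called genes with the smallest p were named, and NUPL2, NXF1, NMD3 and NUTF2 were named after their values were seen. Copies and promoter windows shown were also chosen after values were seen. Protein features were not analysed here.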

Additional observations from a re-analysis of the deposited data

How the results depend on the processing

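Over the 17 alternatives run for members, calls changed for IPO8, KPNA1, KPNA6, NUP133, RANBP2 and RANGAP1, and the other members kept theirs wherever they were tested. The filter on mean CPM removed IPO4, leaving 52 members. With library totals the median log2 fold change was 0.31 over all tested genes and -0.81 over members, with 5 members higher. With upper-quartile factors these values were 0.20, -0.92 and 4 members higher. Without a filter they were 0.16 and -1.14, and with the filter on mean CPM the members' median was -1.04. Values that turned sign with library totals were KPNA6 (0.17), NUP133 (0.015), KPNA1 (0.072), IPO8 (0.24) and RANBP2 (0.070), and with upper-quartile factors KPNA6 (0.058) and IPO8 (0.12); by construction a scaling moves all genes of a library together. Leaving out libraries gave member medians from -1.13 to -1.08, 48 to 49 members lower, and all-gene medians from 0.022 to 0.037. Among the 21 members that no annotated gene overlaps, 16 fell and 2 rose. An annotated gene overlaps the other 34 members, in 15 of them a gene of at least 10 mean counts, and only some of these overlaps are named above.

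For mRNA export factors, genes called higher numbered 6 with upper-quartile factors, 8 with library totals, 1 with the filter on mean CPM and 0 to 2 without single libraries or pairs; for pore subunits outside the rule, 1 with either scaling. For other transport factors, library totals gave 3 higher and 3 lower. Of all tested genes, 8187 were higher and 5505 lower with upper-quartile factors, and 9114 and 4734 with library totals. The replicate block, which pairs libraries by date, changed no call among members; with it 6783 of all genes were higher and 6701 lower, 49 members fell and 2 rose. KPNA7 and NUP210L had too few counts at this depth to be tested.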
